A study of Mus musculus with 4 samples.

Results

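The genes described here are 10 that mark thymic macrophages or take part in the uptake of dead cells: Timd4, Mertk, Axl, Mfge8, C1qa, C1qb, C1qc, Apoe, Cd68 and Mrc1. They were picked by name from a bead array table, which writes them as TIMD4, MERTK, AXL, MFGE8, C1QA, C1QB, C1QG (the older name of C1qc), APOE, CD68 and MRC1. They have 13 probes and are 10 of the 19579 genes that could be named on the array. Gene expression was read in total RNA of whole thymus from C57BL/6 mice of 2 genotypes. The transgenic group carries a miR-181d transgene (line Tg-8) and the knockin group a miR-181d knockin allele. Each group has 2 arrays. The labels give no promoter, construct, age or sex, do not say whether an RNA sample came from a single mouse, and do not state whether the knockin raises or lowers miR-181d. No wild-type array is used here, so each difference only sets one line against the other, and p-values measure the spread between these samples, which may in part be technical. The title names thymocytes, but the tissue label and the design text name the whole organ.

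Most thymocytes die in the thymus because they fail selection, and resident macrophages engulf them before their contents leak. Dying cells expose the lipid phosphatidylserine. Timd4 binds it directly, the receptor tyrosine kinases Mertk and Axl bind it through soluble proteins such as Gas6, and secreted Mfge8 bridges it to integrins. C1q, a hexamer of heterotrimers built from the products of C1qa, C1qb and C1qc, also coats dying cells, and the cargo then passes to lysosomes that carry Cd68. Apolipoprotein E helps to export the cholesterol taken up with the corpse, and Mrc1 is the mannose receptor of resident macrophages. Axl, Mfge8 and Apoe are also made by other cells, including fibroblasts, endothelium, epithelium and dendritic cells.

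The microRNA modified in both lines is shown with its family, since all 4 mature 5p strands share a seed (bases 2 to 8, in capitals). The sequences are from RefSeq (GRCm38.p6).
miR-181d-5p: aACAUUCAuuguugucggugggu
miR-181a-5p: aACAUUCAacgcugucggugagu
miR-181b-5p: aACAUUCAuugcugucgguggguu
miR-181c-5p: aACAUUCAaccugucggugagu
Target sites in the 10 genes were not searched.

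The arrays read thymus tissue with macrophages in it. Cd3e, a chain of the T cell receptor complex, had bead signal of 4430 to 6828 and the recombinase gene Rag1 of 2652 to 3415, while the epithelial genes Foxn1 and Epcam were above background on no array and the cortical epithelial gene Psmb11 read 418.7 to 512.1. The background limit of an array, placed 3 SDs above the peak of its signal distribution, with the SD taken from the values under the peak, lay between 145.5 and 149.6. Of 30 further macrophage identity genes that were measured, 19 were above it on all 4 arrays and 5 on none, the latter including the integrin gene Itgam and the scavenger receptor gene Msr1. Median signal was 140.5 to 145.8. Knockin replicate 2 carried a male transcript pattern, with Xist, the RNA of the inactive X chromosome, at 129.5 against 4366 to 4570 on the other 3 arrays, and the Y-linked Ddx3y at 3519 against 484.4 to 553.7. Sex is thus unbalanced between the genotypes, and the differences of the 10 genes and of the gene lists below are also given without that array.

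None of the 10 genes passed the test between the genotypes. Signal was corrected for background, put on a log2 scale and quantile normalised, and the 2 transgenic arrays were compared with the 2 knockin arrays by limma with Benjamini-Hochberg adjustment over all probes at 0.05. At that threshold 36 of 45281 probes (0.0795%) passed in the whole table, and adjusted p for the 10 genes, each read by its brightest probe, ran from 0.786 to 1.00. At an unadjusted p under 0.05 there were 2, Timd4 and Apoe, both lower in transgenic thymus, beside 4.27% of genes lower at that level among the 10164 named genes that, like all 10, were above background on all 4 arrays. The difference, transgenic minus knockin, was below 0 in 9 of the 10 genes (50.1% of the 10164) and had a median of -0.098, against -0.00029 over the 10164. In 2 genes both transgenic arrays lay below both knockin arrays, where 15.1% of the 10164 did so, and in the other 8 the groups overlapped. The 95% intervals of the 10 differences lay within -0.78 and 0.31 on the log2 scale, so all 10 exclude a doubling of normalised intensity in either direction, on a scale that compresses changes of dim genes. In a bulk sample, fewer macrophages and less RNA per macrophage cannot be told apart.

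**Figure D1:**
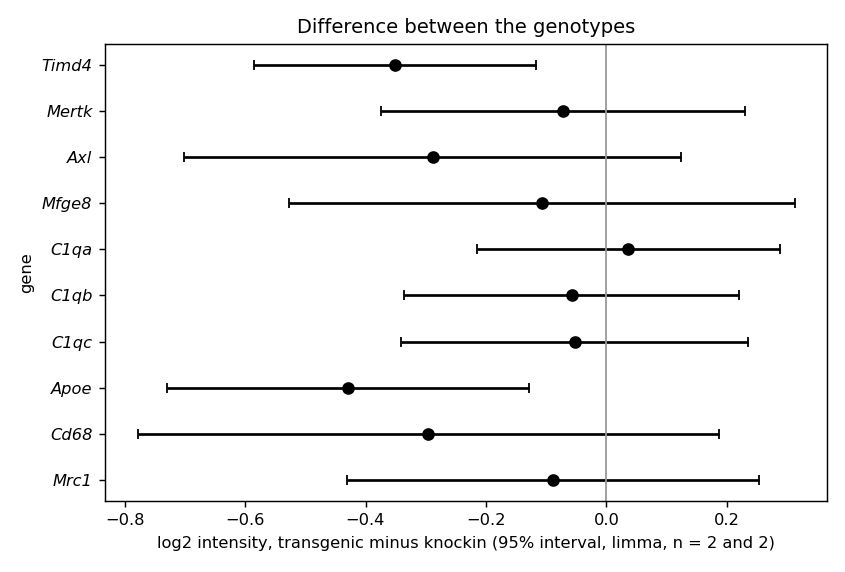
Difference in normalised log2 intensity (transgenic minus knockin, x axis) for each of the 10 genes (y axis), with points at the limma estimate and bars for the 95% interval, n = 2 arrays per group. The intervals of Timd4 and Apoe lie below 0 before adjustment over all probes, and those of the other 8 genes span 0.

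Among the receptors of dying cells, Timd4 separated the groups by a small amount. Transgenic thymus had bead signal of 190.2 and 179.1, and knockin thymus of 218.6 and 227.2. The groups did not overlap, and the signal on every array was near the background limit. Normalised log2 intensity was 6.92 ± 0.031 (SD, n = 2) in transgenic and 7.27 ± 0.090 (SD, n = 2) in knockin thymus, a difference of -0.35 (SE 0.10, 95% interval -0.59 to -0.12, limma unadjusted p = 0.0076, adjusted p = 0.786). The value was -0.42 without knockin replicate 2 and between -0.37 and -0.29 without any one of the other arrays. After normalisation knockin replicate 1 was the highest array for Timd4, which among the 10 genes held for Timd4 alone.

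Mertk, the receptor kinase through which macrophages take up apoptotic thymocytes in mice, did not differ beyond its spread. Signal of its brighter probe was 285.0 and 237.3 in transgenic and 238.3 and 331.9 in knockin thymus, so the highest and the second highest value came from different genotypes. The difference was -0.073 (SE 0.13, 95% interval -0.38 to 0.23), and 0.12 without knockin replicate 2. The second Mertk probe stayed within the background band throughout.

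Axl, the related kinase known from inflamed and interferon-exposed phagocytes, had 1 array that stood apart. Its signal was 2151.4 and 1713.0 in transgenic thymus, 1859.1 on knockin replicate 1 and 3282.8 on knockin replicate 2. Knockin replicate 1 lay between the transgenic arrays, and knockin replicate 2 was above it by 0.67 on the log2 scale after normalisation. The difference between genotypes was -0.29 (SE 0.18, 95% interval -0.70 to 0.12), and 0.045 without knockin replicate 2. The second Axl probe stayed within the background band on all 4 arrays.

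**Figure D2:**
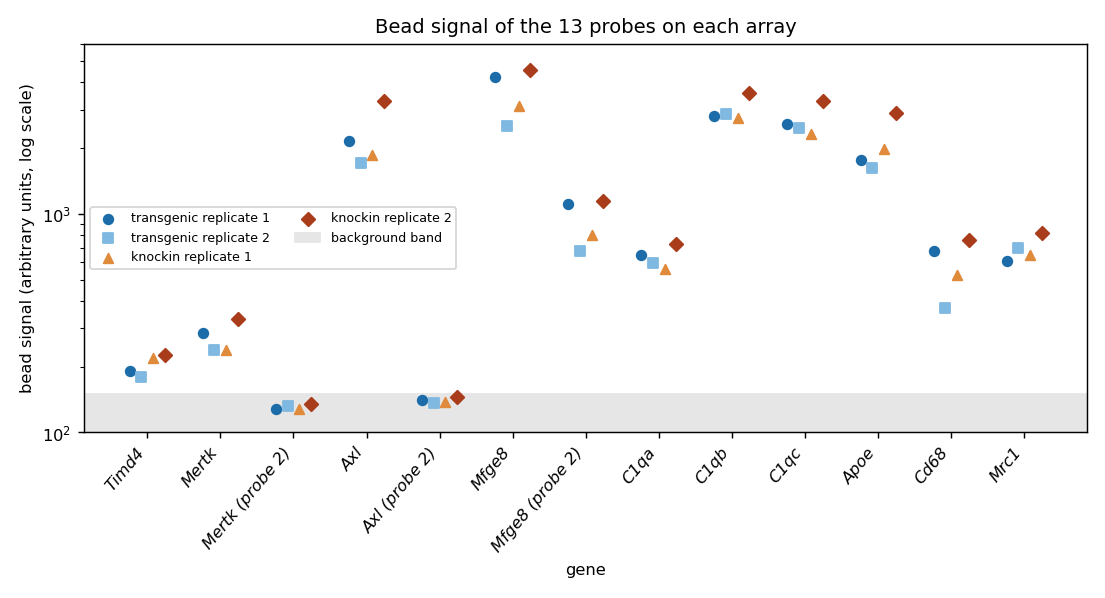
Bead signal (y axis, arbitrary units, log scale) of each of the 13 probes (x axis) on the 4 arrays, 1 point per array, with the background band in grey. Knockin replicate 2 has the highest signal in all 13 probes, and the second probes of Mertk and Axl lie within the background band.

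Of the bridging proteins, Mfge8 varied more within the transgenic line than between the lines. Its brighter probe read 4248.9 and 2530.3 in transgenic and 3113.0 and 4551.5 in knockin thymus. Transgenic replicate 1 and knockin replicate 2 were high, transgenic replicate 2 was low, and the groups overlapped. The arrays of the transgenic line differed by 0.58 and those of the knockin line by 0.38, against a difference of means of -0.11 (SE 0.19, 95% interval -0.53 to 0.31). The second Mfge8 probe gave the same order of the 4 signals, at 1110.3 and 680.3 against 799.2 and 1144.6, and a difference of -0.068 (SE 0.17). Without knockin replicate 2 the brighter probe gave 0.081.

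The 3 C1q genes, whose products assemble into 1 protein, were close to equal in the lines. C1qa read 645.8 and 599.1 in transgenic and 560.1 and 732.8 in knockin thymus. C1qb read 2801.9 and 2882.3 in transgenic and 2756.1 and 3572.3 in knockin thymus. C1qc read 2569.2 and 2465.2 in transgenic and 2330.7 and 3291.8 in knockin thymus. In all 3 genes knockin replicate 1 had the lowest and knockin replicate 2 the highest signal, with both transgenic arrays between them. After normalisation this order held for C1qc alone. C1qa was then highest on transgenic replicate 2, at log2 9.23 against 9.21 on knockin replicate 2. C1qb was lowest on transgenic replicate 1, at 11.37 against 11.43 on knockin replicate 1. Differences after normalisation were 0.036 (95% interval -0.22 to 0.29) for C1qa, -0.058 (-0.34 to 0.22) for C1qb and -0.052 (-0.34 to 0.24) for C1qc. The sign of the C1qa value was not stable, at -0.014 with median scaling in place of quantile normalisation. Without knockin replicate 2 the values were 0.12 for C1qa, 0.056 for C1qb and 0.11 for C1qc. Within each line the second replicate was above the first in all 3 genes after normalisation, by 0.13 to 0.23 in transgenic and 0.18 to 0.33 in knockin thymus.

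The C1q genes are neighbours in the mouse gene order, with no other gene of the reference table between them. Their normalised values went together between the replicates of each line, though the order of all 4 arrays was not the same. The promoters of 2 of them are shown beside that of Timd4, whose array order differed. Any link between promoter letters and array order was not tested. Each run is the 250 bases before an annotated start from RefSeq (GRCm38.p6), 5′ to 3′ on the gene's strand, with matches to the PU box GAGGAA, the core bound by the myeloid ETS factor PU.1, in capitals on either strand. That start was not always the outer edge of the gene. The windows of Timd4, C1qc and Axl ran into the annotated gene, and the 3 Apoe windows lay inside it.
C1qb, chr4:136886201-136886450, minus strand: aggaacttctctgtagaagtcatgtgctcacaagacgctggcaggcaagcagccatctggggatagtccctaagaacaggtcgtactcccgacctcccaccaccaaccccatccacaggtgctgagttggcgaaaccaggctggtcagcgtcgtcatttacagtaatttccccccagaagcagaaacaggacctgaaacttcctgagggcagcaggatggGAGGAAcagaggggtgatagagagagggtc
C1qc, chr4:136892915-136893164, minus strand: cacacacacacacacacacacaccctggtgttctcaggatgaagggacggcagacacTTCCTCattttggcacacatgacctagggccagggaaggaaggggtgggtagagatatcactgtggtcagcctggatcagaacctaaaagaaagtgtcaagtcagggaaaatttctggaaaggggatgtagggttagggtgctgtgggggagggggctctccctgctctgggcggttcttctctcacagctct
Timd4, chr11:46810549-46810798, plus strand: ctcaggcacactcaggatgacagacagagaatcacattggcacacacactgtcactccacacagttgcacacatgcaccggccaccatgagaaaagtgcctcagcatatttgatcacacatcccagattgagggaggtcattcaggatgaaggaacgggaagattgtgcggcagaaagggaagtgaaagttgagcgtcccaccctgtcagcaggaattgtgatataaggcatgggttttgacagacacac
The PU box began 30 bases before the start in C1qb and, on the opposite strand, 193 bases before it in C1qc, and the Timd4 window held none. Of the 9 genes among the 10 with a window, 7 held the PU box (Axl, Mfge8, C1qb, C1qc, Apoe, Cd68 and Mrc1), against 25.9% of 27025 genes, and Apoe had 3 windows to hold it in. C1qa had no window. Mertk, like Timd4, held no PU box. Its array order differed from that of Timd4, with knockin replicate 2 highest and knockin replicate 1 lowest after normalisation, as in C1qc. Timd4 alone held the MAF half-site TGCTGAC (4.31% of genes), Timd4 and C1qc held the nuclear receptor half-site AGGTCA (15.8%), and none held the E-box CACGTG (6.86%). These 4 motifs were chosen with the values known, were searched on both strands, and none of their letters contain another of the 4. A match describes the letters only, and binding was not measured.

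Apoe, the lipid carrier, had the largest difference of the 10 genes and, like Timd4, groups that did not overlap. Signal was 1758.1 and 1630.2 in transgenic and 1973.5 and 2907.0 in knockin thymus. Knockin replicate 2 stood well above the rest, and knockin replicate 1 was nearer to the transgenic arrays than to it. Normalised log2 intensity was 10.71 ± 0.080 (SD, n = 2) in transgenic and 11.14 ± 0.27 (SD, n = 2) in knockin thymus, a difference of -0.43 (SE 0.13, 95% interval -0.73 to -0.13, limma unadjusted p = 0.0101, adjusted p = 0.833). Without knockin replicate 2 the value was -0.24, and without knockin replicate 1 it was -0.62.

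Cd68, the lysosomal glycoprotein of macrophages, spanned the widest range of the 10 genes, log2 0.85 from the lowest to the highest array. Its signal was 679.8 and 373.2 in transgenic and 523.7 and 761.1 in knockin thymus. The transgenic arrays were the second highest and the lowest, so the groups overlapped. They differed by 0.76 after normalisation, against a difference between genotypes of -0.30 (SE 0.22, 95% interval -0.78 to 0.19). Leaving out transgenic replicate 2 gave 0.082, leaving out transgenic replicate 1 gave -0.67, and leaving out knockin replicate 2 gave -0.12.

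Mrc1, the mannose receptor, read 609.8 and 696.5 in transgenic and 648.5 and 814.5 in knockin thymus. After normalisation transgenic replicate 1 was the lowest and transgenic replicate 2 the highest array, 0.49 apart. Both knockin arrays lay between them, and the difference of means was -0.089 (SE 0.15, 95% interval -0.43 to 0.25), and -0.029 without knockin replicate 2.

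In 8 of the 10 genes the 2 arrays of at least 1 line differed by more than the means of the lines did, the exceptions being Timd4 and Apoe. The same count was not made over all genes, so it is not read as a trait of the 10. Knockin replicate 2 had the highest bead signal in 10 of 10 genes, where it was highest in 56.5% of the 10164 genes above background. After normalisation, which removes its brighter overall signal, it was the highest array in 7 of 10 genes, against 26.6% of those 10164 genes. It was above knockin replicate 1 in 9 of 10 genes (50.5% of the 10164), with a median of 0.34 over the 10, and Timd4 was the exception.

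Transgenic replicates split the genes in a different way. Mertk, Axl, Mfge8 and Cd68 were higher on transgenic replicate 1, by 0.12, 0.12, 0.58 and 0.76 on the log2 scale. Timd4, C1qa, C1qb, C1qc, Apoe and Mrc1 were higher on transgenic replicate 2, by 0.044 to 0.49. Transgenic replicate 1 was thus above replicate 2 in 4 of the 10 genes, near the 5207 of the 10164 genes above background. Such a split is therefore not particular to these genes. Between these 2 arrays, the one with higher C1q and Mrc1 had lower Mfge8 and Cd68. These orders describe 4 arrays and were not tested.

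**Figure D3:**
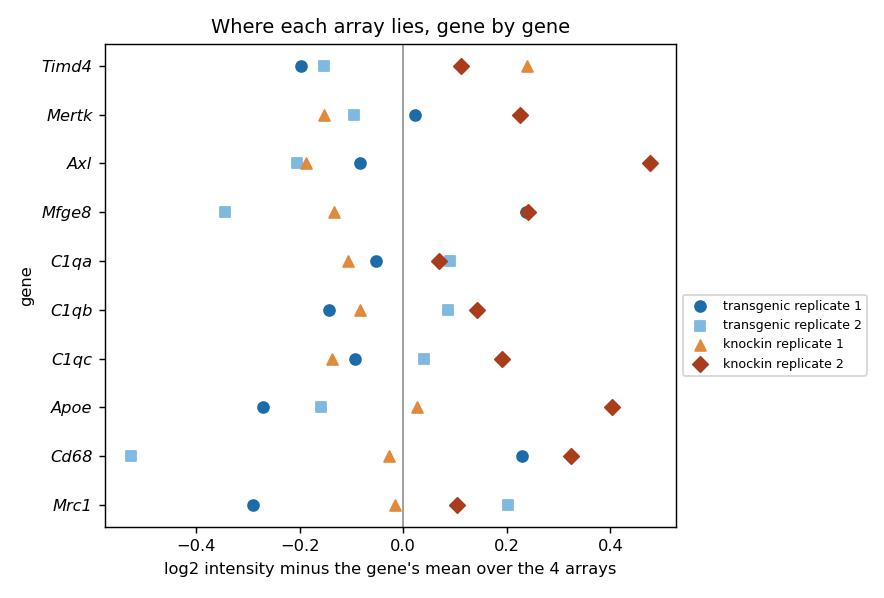
Normalised log2 intensity on each array minus the gene's mean over the 4 arrays (x axis) for the 10 genes (y axis), 1 point per array. Knockin replicate 2 is the rightmost array in 7 genes, while the transgenic arrays change sides between Mfge8 or Cd68 and the C1q genes or Mrc1.

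Leaving out knockin replicate 2 leaves 3 arrays with the female transcript pattern. The difference between transgenic thymus and knockin replicate 1 was then above 0 in 6 genes and below 0 in 4, namely Timd4, Apoe, Cd68 and Mrc1, with a median of 0.050. Of the 10164 genes above background on all arrays, 5055 were below 0, with a median of 0.0012. No gene of the 10 passed over all probes (1 had an unadjusted p under 0.05). Without knockin replicate 1 all 10 values were below 0, with a median of -0.28, and the share over all genes was not computed. Timd4 and Apoe kept a negative value without any one array, and each of the other 8 genes changed sign without at least 1 array.

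**Figure D4:**
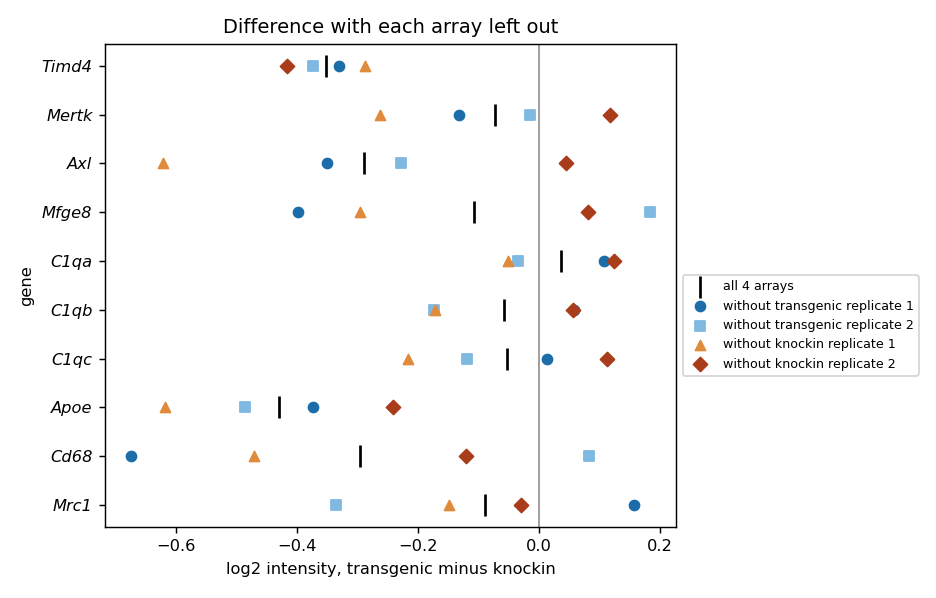
Difference in normalised log2 intensity (transgenic minus knockin, x axis) for the 10 genes (y axis) with all 4 arrays (bars) and with each array left out (points). Points for Timd4 and Apoe stay below 0, and leaving out knockin replicate 2 or transgenic replicate 2 moves points of Mertk, Axl, Mfge8, C1qb, C1qc or Cd68 above 0.

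Other genes of dead-cell clearance were measured in 43 cases, 27 of them above background on all arrays and 11 on none. Of the 43, limma called 0, with 3 at an unadjusted p under 0.05 (2 higher and 1 lower in transgenic thymus). The values were below 0 in 27 and above 0 in 16, with a median of -0.044, and without knockin replicate 2 they were below 0 in 19, with a median of 0.045. Ppard, a nuclear receptor of lipid sensing, had a value of -0.32 (-0.28 without knockin replicate 2) and P2ry6, a nucleotide receptor of phagocytes, of -0.28 (-0.10 without it). Abca7, a lipid transporter linked to phagocytosis, had a value of 0.27 (0.31 without it), and the engulfment receptor Lrp1, at 0.28 (0.26 without it), was above background on 1 array only. Cd47, which shields living cells from uptake, was bright on all arrays, at 4177 to 5177, with a value of 0.043 (0.093 without knockin replicate 2). Complement C3 had a value of -0.31 with overlapping groups, and -0.061 without knockin replicate 2.

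Lysosomal genes that digest the cargo were measured in 23 cases, all above background on all 4 arrays. Of these limma called 0, with 2 at an unadjusted p under 0.05, and the median was -0.025, or 0.071 without knockin replicate 2. Those 2 were Grn, which encodes progranulin, at -0.56 (limma unadjusted p = 0.0146, adjusted p = 0.941) and Gpnmb, a glycoprotein of phagocyte lysosomes, at -0.35 (limma unadjusted p = 0.0104, adjusted p = 0.838). Grn signal was 1072.8 and 790.4 in transgenic and 1034.0 and 1891.8 in knockin thymus, so that knockin replicate 1 was close to transgenic replicate 1. Without knockin replicate 2 the value was -0.22 for Grn and -0.36 for Gpnmb. The protease gene Ctsd had a value of 0.23 (0.20 without that array). Psap, the precursor of the saposins, read 11929.5, 7818.2, 8108.8 and 12857.3 in the same order, high on the 2 arrays on which Mfge8 was high. Its difference was 0.033, and 0.30 without knockin replicate 2.

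The further macrophage identity genes had a median of -0.076 over 30 genes, 20 of them below 0. Without knockin replicate 2 the median was 0.034, with 11 below 0. Of these limma called 0, and an unadjusted p under 0.05 was reached by 2. Spic, the transcription factor of iron-recycling macrophages, had a value of -0.48, with signal of 300.6 and 364.7 in transgenic and 397.0 and 529.1 in knockin thymus. Its value was -0.37 without knockin replicate 2. Cx3cr1, the fractalkine receptor, had a value of -0.26 (-0.33 without it). The next smallest p-values belonged to genes on the other side of 0, the folate receptor gene Folr2 at 0.25 (0.32 without it), above background on 3 arrays, and Msr1 at 0.22 (0.20 without it), above background on none. The lysozyme genes Lyz1 and Lyz2, which near-identical sequence may mix, had values of -0.11 and -0.19 (-0.20 and -0.45 without it).

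Markers of other cells also differed between the arrays. Granulocyte genes separated the lines, with 4 of 11 lower in transgenic thymus by limma (S100a8, S100a9, Camp and Prg2), 9 of 11 with both transgenic arrays below both knockin arrays, and a median of -1.15. Adjusted p of those 4 rose to 0.087 to 0.20 with median scaling and to 0.15 to 0.63 without background correction, and that of Prg2 to 0.069 when all probes of a gene were averaged, with every value still below 0. Without knockin replicate 2 all 4 passed, at adjusted p of 2.7e-04 to 0.0027, and the list's median was -0.78. Summed granulocyte signal was 5717 and 4404 in transgenic and 10427 and 13179 in knockin thymus. Knockin replicate 2 was above replicate 1 in 33 of 43 other clearance genes (median 0.081) and 17 of 23 lysosomal genes (0.19). The same held in 20 of 30 further macrophage identity genes (0.12) and 10 of 11 granulocyte genes (0.14). It held in 6 of 8 endothelial (0.039) and 5 of 8 fat genes (0.065), against 50.5% of the 10164. Fibroblast genes were higher on knockin replicate 2 in 10 of 10 cases, with a median of 0.32 beside 0.34 for the 10 clearance genes. Their summed signal was 6970 and 7923 in transgenic and 7488 and 10185 in knockin thymus. Of the fibroblast genes 7 were above background on all arrays, and their median difference between the lines was -0.12, or 0.010 without knockin replicate 2. Dendritic cell genes were higher on knockin replicate 2 than on replicate 1 in 10 of 12 cases (median 0.070). Of the 12, 3 were above background on no array. Their summed signal was 17501 and 14094 in transgenic and 15615 and 21184 in knockin thymus. Most of it came from the antigen-presentation gene H2-Ab1, at 12535 and 9327 in transgenic and 10944 and 15158 in knockin thymus. That sum therefore follows a single bright gene more than the list. Thymocyte and thymic epithelial genes were higher on knockin replicate 2 than on replicate 1 in 3 of 11 cases (median -0.086). The median difference between the lines was -0.061 for dendritic cell and -0.014 for thymus genes, and -0.027 and -0.18 without knockin replicate 2. Endothelial genes had a median difference of -0.029 over 8 (-0.022 without that array), with Plvap at -0.57 and Pecam1 at 0.31.

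Fat markers had a median above 0, at 0.15 over 8 genes with 6 above 0 (0.13 without knockin replicate 2). Limma called 0 of them, and 2 were higher in transgenic thymus at an unadjusted p under 0.05, Plin1 at 0.37, above background on 1 array, and Cidec at 0.28. Of the 8 genes, 5 were above background on all arrays and 2 on none, and summed signal was 6478 and 4210 in transgenic and 4996 and 5843 in knockin thymus. Ucp1, the uncoupling protein of brown fat, named here after its values were seen, read 849.0 and 149.3 in transgenic and 176.9 and 441.3 in knockin thymus. It was high on transgenic replicate 1 and knockin replicate 2, the arrays with the higher signal of Mfge8, Cd68 and Psap. In bead signal Cidec, Adipoq and Cfd were also highest on these 2 arrays. After normalisation no fat gene other than Ucp1 had its 2 highest values there, and Adipoq spanned only 0.078. The part of sex, granulocytes, fibroblasts, dendritic cells or fat in the values of Apoe, Axl and the other genes was not tested.

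**Figure D5:**
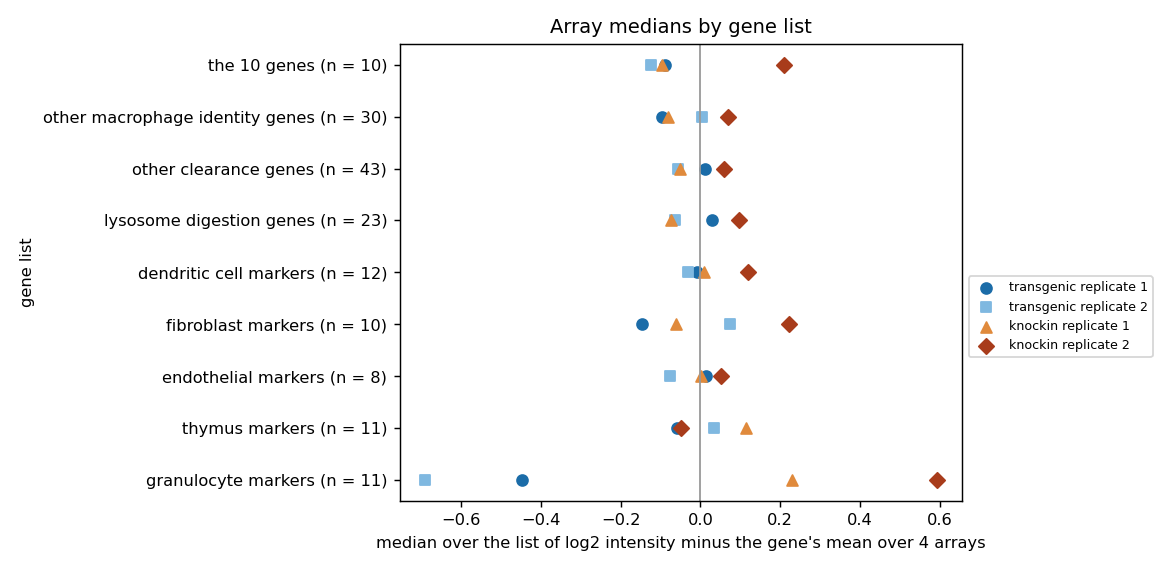
Median over each gene list (y axis, with the number of genes measured) of log2 intensity minus the gene's mean over the 4 arrays (x axis), 1 point per array. Granulocyte markers separate transgenic from knockin arrays. Knockin replicate 2 is the rightmost array in every list shown except the thymus markers, the 10 clearance genes and the fibroblast markers included.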

How the data were processed

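Illumina MouseWG-6 v2.0 bead arrays read whole thymus RNA of 2 samples per line. All 4 lie on 1 slide. Groups come from the sample titles and arrays were matched by the array name in the description. Per the file headers, the deposited table holds average bead signal intensity as GenomeStudio 1.9.0 wrote it, without normalization or error model. It has no detection p-values or control probes, so neqc was not possible. The authors' deposited value table holds processed intensity by a method not given in the sources used here, with GenomeStudio named in the submitters' processing notes. The probes of that table are not paired with genes, so it gave only a count of probes.

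Signal was corrected with normexp (offset 50), put on log2 and quantile normalised, which forces equal distributions and understates changes of dim genes. The fit used limma 3.58.1 in R 4.3.3 on all 45281 probes, two-sided, with Benjamini-Hochberg adjustment at 0.05, and the code was tested on simulated data. There it recovered 77.6% of 67 brighter probes shifted 1.5-fold and 100% of those shifted 2-fold. It also called 34 probes that had not been shifted. An exact permutation test of 2 against 2 arrays cannot go below p = 0.333. The small number of arrays limits precision. Names were matched to RefSeq symbols (22864 probes by symbol, 11917 by synonym). The probe with the highest mean stood for a gene. Named genes are the 10 members, and from each list of related genes the 4 with the smallest p, the 2 brightest and any called; a gene that this rule names is not reported here. Foxn1, Epcam and Itgam were also named as tissue checks after their values were seen, as were Ucp1, Plin1, Cidec, Plvap and Pecam1 as markers of other cells. Members and lists were chosen with earlier results of these data known. Replicate numbers are shared between the groups in the labels but nothing says that they mark a litter or batch. The main fit was planned without a block. Across 18034 probes the difference of replicate 1 and 2 in one line correlated with that in the other at r = -0.36. Same-numbered arrays thus tended to deviate in opposite directions, a structure that the main fit leaves in its residual spread. A block that crosses the replicate numbers was added for this and is given below.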

Additional observations from a re-analysis of the deposited data

How the results depend on the processing

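No alternative brought any of the 10 genes past the threshold. The number of probes passing in the whole table was 3 without background correction, 70 with an offset of 16, 2 with median scaling, 112 with an intensity trend and robust priors, 57 among probes above background on at least 2 arrays, 12 genes with the mean of all probes, and 0 in the authors' value table (limma, 3299 at an unadjusted p under 0.05). It ranged from 24 to 89 with each array left out, where the lone array of a line is assumed to vary like the other line. The cause of these shifts was not tested. The authors' values, with array medians of 1.75 to 1.81, were put on log2 after adding 8, which compresses the changes of most probes. The median of the 10 genes ranged from -0.28 to 0.050 with each array left out, and was -0.098 with the replicate number as a block, which gave 38 probes and changed no call among the 10 genes. The crossed replicate block, added after seeing the data, gave 364 probes and 0 of the 10 genes. Apoe had adjusted p of 0.094 to 1.00 and Timd4 of 0.17 to 1.00 over the alternatives, both always below 0. With an array left out, values ranged from -0.26 to 0.12 for Mertk, -0.62 to 0.045 for Axl, -0.40 to 0.18 for Mfge8, -0.051 to 0.12 for C1qa, -0.17 to 0.057 for C1qb, -0.22 to 0.11 for C1qc, -0.67 to 0.082 for Cd68 and -0.33 to 0.16 for Mrc1. C1qa was at -0.014 with median scaling. Normalising without knockin replicate 2, also added after seeing the data, gave 78 probes, a median of 0.048, and 0.12 for Mertk, 0.042 for Axl, 0.078 for Mfge8, 0.055 for C1qb and 0.12 for C1qc. The authors' value table gave no value for the 10 genes, since its probes carry no gene names here. Timd4 lies near background on every array, which limits its precision.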
